A study of Arabidopsis thaliana with 47 samples.

Results

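The 150 genes described here rose with 5 nM RGF1 in Arabidopsis roots that carry a PLT2 transgene and stayed nearly level in roots without one. They were chosen by FPKM (a level scaled to gene length and library size) in the mock and 5 nM libraries. The 25722 loci of that table were first cut to the 15900 with a mean FPKM of at least 2 over all 47 libraries. For each line, D is the mean log2(FPKM + 1) at 5 nM RGF1 minus that under mock treatment, so a D of 1 is close to 2 times the level. Of the 15900 genes, 10740 had an absolute D under 0.3 in plt2, and the 150 with the highest smaller value of D in gPLT2C212S and gPLT2 were kept. The last genes inside the limit were AT4G33400, HMA4 and AT3G22660, whose smaller D was 0.75, 0.75 and 0.749. The first genes outside it, AT1G23790, AT2G15320 and GID1B, had 0.748, 0.747 and 0.747, so the limit cut through a continuous range of values.

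RNA was measured in the dissected meristematic zone, where root cells divide, from seedlings grown for 6 days and then treated for 24 h, with 50 root sections per sample. The lines were gPLT2C212S, which is the plt2 mutant with a genomic PLT2-GFP transgene bearing the substitution in its name, gPLT2, which is plt2 with the unaltered gPLT2-GFP transgene, and the plt2 mutant alone. Each line was given mock solution or RGF1 at 0.3 nM or 5 nM, which makes 9 groups of n = 5 libraries, or n = 6 for gPLT2C212S and gPLT2 at 5 nM. Every group carries the plt2 mutation, and no wild-type group was analysed here. The labels do not give the number of independent transgenic lines, so a transgene's effect and any other line difference cannot be told apart. They also do not say whether replicates were separate cultures, so p-values measure only the spread between these samples.

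RGF1 (root meristem growth factor 1) is a small secreted peptide that binds receptor kinases on root cells. PLT2 (PLETHORA 2) is a transcription factor of the AP2 family whose graded protein level in the root tip sets where cells stay stem cells, divide or mature. RGF1 signalling is known to stabilise PLT2 protein and widen its gradient, and the cells of the zone where PLT2 acts divide often and make many ribosomes.

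Libraries held 7739807 to 10332541 counts. Between 45% and 70.4% of them fell on 2 mitochondrial loci (ATMG00020, ATMG01390), which left 2652354 to 5116600 counts per library once 14 widely counted loci that have no FPKM row were set aside. PLT2 transcript followed the labels: it averaged 22.1 ± 2.02 FPKM in gPLT2C212S, 15.1 ± 2.27 FPKM in gPLT2 and 3.21 ± 1.31 FPKM in plt2 at 0.3 nM (SD, n = 5 each). The gPLT2C212S libraries therefore held more PLT2 transcript than the gPLT2 libraries, with no overlap between their lowest value of 19.5 FPKM and the gPLT2 maximum of 17.7 FPKM.

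The members were of modest abundance and of many kinds. By the RefSeq annotation of TAIR10.1, 146 of the 150 are protein coding, and 43, 15, 43, 20 and 29 lie on chromosomes 1 to 5. Mean counts per library were at least 20 for 121 members and lower for 29. Of all members, 42 overlap another annotated gene, and since the use of strand in counting is not given in the sources used here, their reads could include reads of that gene. Adjacent in the genome were CYCB2;3 and CAT3, AT2G15880 and MEE14, and SLY2 and AT5G48175.

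Averaged over the 150 genes, each library gives 1 value of log2(FPKM + 1). Under mock treatment this level was 2.78 ± 0.06 in gPLT2C212S, 2.775 ± 0.081 in gPLT2 and 2.78 ± 0.05 in plt2 (SD, n = 5 each). At 0.3 nM it was 3.79 ± 0.046 in gPLT2C212S, 3.395 ± 0.047 in gPLT2 and 2.714 ± 0.018 in plt2. At 5 nM it was 4.053 ± 0.03, 3.92 ± 0.025 and 2.859 ± 0.047 in the same order of lines. The 3 lines thus started from overlapping levels, and at 0.3 nM all gPLT2C212S libraries lay above all gPLT2 libraries, which lay above all plt2 libraries.

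**Figure D1:**
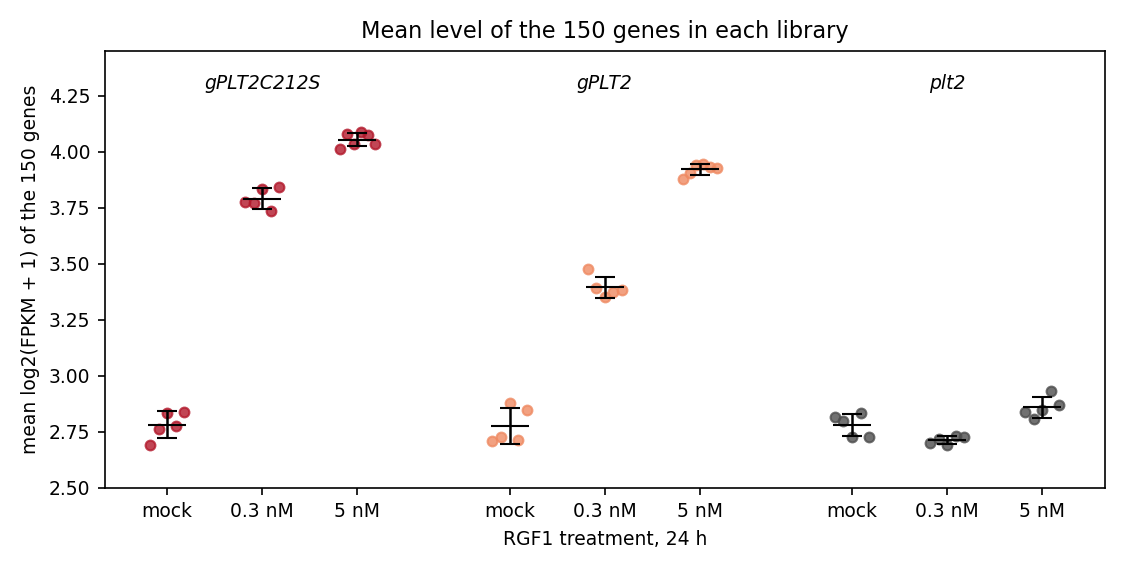
Mean log2(FPKM + 1) of the 150 genes in each library (points) with the mean and SD of each group (bars), by line and RGF1 treatment. At 0.3 nM the gPLT2C212S libraries lay between 3.734 and 3.841, the gPLT2 libraries between 3.352 and 3.475 and the plt2 libraries between 2.691 and 2.732. The mock and 5 nM libraries chose the genes.

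The mock and 5 nM values are a description, because the rule used them. Over the 150 genes the median D was 1.05 in gPLT2C212S, 1.027 in gPLT2 and 0.103 in plt2. An edgeR quasi-likelihood test of 5 nM against mock called 143 members higher in gPLT2C212S, where 18.7% of all genes tested were called higher. In gPLT2 it also called 143, against 23.2% of all genes, and in plt2 it called 0 of the 124 members tested, against 2.82% of all genes (5 members had an unadjusted p under 0.05). At 0.3 nM against mock, 128 members were called higher in gPLT2C212S, beside 11.9% of all genes, and 68 in gPLT2, beside 6.14%. None of the 123 members tested was called in plt2 at that dose, where 0.0315% of all genes were called higher, and 10 members had an unadjusted p under 0.05. These comparisons share their mock libraries with the rule. Lower calls made up 21.5%, 24.3% and 6.62% of all genes at 5 nM, and 11.1%, 9.08% and 0.0189% at 0.3 nM, in gPLT2C212S, gPLT2 and plt2.

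Between lines under mock treatment members were called in both directions. In gPLT2C212S against plt2 it was 15 higher and 11 lower of 125 tested, beside 6.83% and 11.8% of all genes. In gPLT2 against plt2 it was 6 higher and 4 lower of 127 tested, beside 1.45% and 1.08%. In gPLT2C212S against gPLT2 it was 3 higher and 4 lower of 124 tested, beside 2.23% and 6.55%. Of the members tested, the share called higher was above that of all genes in both comparisons with plt2. The share called lower was above it in gPLT2 against plt2 and below it in the others. At 5 nM, 130 members were called higher and 0 lower in gPLT2C212S against plt2 (21.8% and 23.2% of all genes), 131 higher and 0 lower in gPLT2 against plt2 (17.8% and 20.7%), and 18 higher and 5 lower in gPLT2C212S against gPLT2 (2.2% and 2.06%).

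The 0.3 nM libraries entered the rule only through the filter on mean FPKM, so the lines were compared there. Some members lay just above that filter, such as HMA5 (mean FPKM 2.026), UBC29 (2.139), CYP81D8 (2.176) and HCHIB (2.308). Their high transgenic values at 0.3 nM counted toward passing it, so their comparisons at 0.3 nM are a description. Calls rest on edgeR's quasi-likelihood F test, with p-values adjusted by the Benjamini-Hochberg method across the whole table and a threshold of 0.05. In gPLT2C212S against plt2, 127 of the 150 members were called higher and 2 lower, beside 22.2% and 24.2% of all genes tested. Another 14 were tested and not called, and 7 had too few counts to be tested. In gPLT2 against plt2, 77 members were called higher and 3 lower, beside 14.3% and 17.0% of all genes, with 55 not called and 15 not tested. Directly between the transgenic lines, 48 members were called higher in gPLT2C212S and 0 lower, beside 3.4% and 3.99% of all genes. Of the rest, 96 were not called and 6 not tested. In that last comparison 82 members had an unadjusted p under 0.05, and DESeq2 called 51 higher and 0 lower.

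The size of these differences was spread widely. Over all 150 members the median difference in mean log2(FPKM + 1) at 0.3 nM was 0.936 for gPLT2C212S minus plt2, 0.627 for gPLT2 minus plt2 and 0.343 for gPLT2C212S minus gPLT2. Over the 15900 genes the same medians were 0.019, -0.001 and -0.006. The difference was above 0 for 146, 127 and 123 members in the same order of comparisons. Every gPLT2C212S library lay above every plt2 library for 98 members, or 65.3%, against 13.6% of the 15900 genes. The corresponding shares were 34.7% against 8.3% for gPLT2 over plt2, and 30.0% against 3.26% for gPLT2C212S over gPLT2.

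Markers of some other cell types differed between the same groups, and those of others overlapped. At 0.3 nM GL2 of the non-hair epidermis ran from 10.4 to 16.5 FPKM in gPLT2C212S, from 12.3 to 17.5 in gPLT2 and from 14.3 to 19.5 in plt2. The phloem marker APL ran from 1.63 to 3.26, 1.88 to 4.26 and 1.43 to 3.9 FPKM in the same order. Ranges also overlapped between all lines for the endodermis, cortex, xylem and quiescent centre markers. Root hair genes RHD6 and COBL9 summed to 6.78 to 8.43 FPKM in gPLT2C212S, 9.22 to 14.2 in gPLT2 and 12.5 to 26.4 in plt2. At 0.3 nM that gPLT2C212S range thus lay below both others, which overlapped. The summed FPKM of the root cap genes SMB, BRN1 and BRN2 at 0.3 nM ran from 47.3 to 79.1 in gPLT2C212S, from 101 to 167 in gPLT2 and from 215 to 319 in plt2, with all 3 genes detected. The sum over 5 genes of the meristem and dividing cells ran from 112 to 147 in gPLT2C212S, from 70.2 to 88.8 in gPLT2 and from 65.4 to 80.8 in plt2, but PLT2 itself and the members KNOLLE (here SYP111) and CDKB2;1 are among those 5. PLT1, another of the 5, went the other way, with a median of 2.87 FPKM in gPLT2C212S and 3.96 FPKM in gPLT2, against 15.2 FPKM in plt2. The fifth, CYCB1;1, had medians of 14.6, 8.25 and 9.14 FPKM in the same order of lines. The median share of counts at the mitochondrial pair was 52.5% in gPLT2C212S, 56.9% in gPLT2 and 58.5% in plt2. With that share as a covariate in edgeR, 121 members were called higher in gPLT2C212S than in plt2, 74 in gPLT2 than in plt2, and 41 in gPLT2C212S than in gPLT2. The part of changed cell composition in the results was not tested, and in bulk tissue more cells of a type and more RNA per cell cannot be told apart.

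To describe the members by what their products do, 79 of them were placed by hand in 9 role groups after the values were known, so the groups carry no test of their own. CRF4 and bZIP1 stand in 2 groups each, and 71 members were placed in none. For the groups and gene lists below, calls at 0.3 nM covered 22.2% higher and 24.2% lower of all genes in gPLT2C212S against plt2. The same shares were 14.3% and 17.0% in gPLT2 against plt2, and 3.4% and 3.99% in gPLT2C212S against gPLT2.

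**Figure D2:**
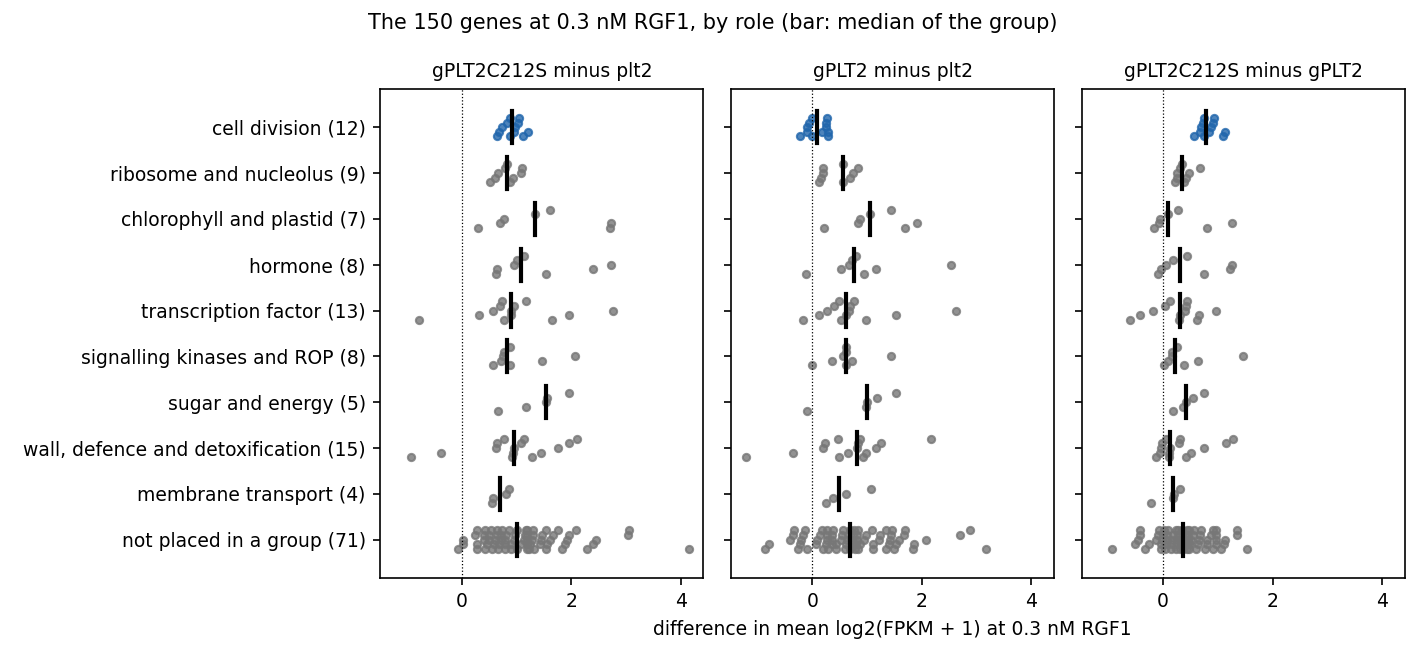
Difference between lines in mean log2(FPKM + 1) at 0.3 nM RGF1 for each of the 150 genes (points), by role group, with the group median (black bar). The 12 cell division genes (blue) have median differences of 0.912 for gPLT2C212S minus plt2, 0.088 for gPLT2 minus plt2 and 0.79 for gPLT2C212S minus gPLT2, while most other groups lie to the right of 0 in both comparisons with plt2.

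The 12 cell division genes were separated between the transgenic lines at the low dose. All 12 were called higher in gPLT2C212S than in plt2, all 12 were called higher in gPLT2C212S than in gPLT2, and 0 were called in gPLT2 against plt2 by edgeR or DESeq2. In that last comparison 4 of them (SYP111, CYCB2;3, CDKB2;1 and POK2) had an unadjusted p under 0.05, and 4 were called higher when libraries were scaled to their total nuclear counts. PLT2 transcript, as given above, was also higher in gPLT2C212S than in gPLT2, and its part in the difference was not tested. At 5 nM, which chose them, the median D was 0.933 in gPLT2C212S, 0.871 in gPLT2 and 0.087 in plt2. From mock to 0.3 nM the median difference was 0.762 in gPLT2C212S, 0.196 in gPLT2 and -0.169 in plt2. Under mock, the edgeR log2 fold changes of gPLT2C212S over gPLT2 were already above 0 for all 12. They ran from 0.082 for CYC1BAT to 0.406 for AT4G26660, and none was called (edgeR adjusted p at least 0.142). The part of this mock difference in the gap at 0.3 nM was not tested. Their products build the mitotic spindle and the cell plate or drive entry into mitosis.

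SYP111 (AT1G08560), also called KNOLLE, is the syntaxin that fuses vesicles at the forming cell plate. Its levels at 0.3 nM were 39.6, 32.4, 57.7, 44.1 and 48.8 FPKM in gPLT2C212S, 23.5, 19.2, 31.6, 28.1 and 20.2 FPKM in gPLT2, and 18.4, 19.6, 19.3, 19.4 and 21.9 FPKM in plt2. Every gPLT2C212S library lay above every other library, and the gPLT2 and plt2 ranges overlapped. The edgeR log2 fold change was 1.18 ± 0.14 (SE) for gPLT2C212S over plt2 (adjusted p = 6.93e-07) and 0.88 ± 0.16 for gPLT2C212S over gPLT2 (adjusted p = 0.000867). For gPLT2 over plt2 it was 0.32 ± 0.15 (edgeR adjusted p = 0.102). At 5 nM SYP111 averaged 50.9 ± 6.4 FPKM in gPLT2C212S (SD, n = 6), 44.1 ± 7.66 FPKM in gPLT2 (n = 6) and 25.3 ± 4.4 FPKM in plt2 (n = 5).

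HIK (AT1G18370, HINKEL) and POK2 (AT3G19050) encode kinesins of the phragmoplast, the microtubule array that guides the cell plate. HIK stood at 23.0, 21.9, 31.8, 24.3 and 31.9 FPKM in gPLT2C212S, 17.8, 14.5, 11.3, 13.0 and 11.5 FPKM in gPLT2, and 16.1, 18.6, 12.5, 17.8 and 15.3 FPKM in plt2 at 0.3 nM. POK2 stood at 13.2, 10.7, 16.9, 12.3 and 14.3 FPKM in gPLT2C212S, 9.26, 8.33, 8.3, 8.6 and 8.89 FPKM in gPLT2, and 6.61, 8.54, 6.99, 7.98 and 5.65 FPKM in plt2. For both genes gPLT2C212S was above the other lines without overlap, while gPLT2 and plt2 shared part of their range. The edgeR log2 fold change of gPLT2C212S over gPLT2 was 0.97 ± 0.14 (SE) for HIK (adjusted p = 0.000111). For POK2 it was 0.65 ± 0.12 (edgeR adjusted p = 0.00105). Against plt2, the gPLT2 estimate was -0.22 ± 0.14 for HIK (edgeR adjusted p = 0.241) and 0.29 ± 0.12 for POK2 (adjusted p = 0.0666).

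CDKB2;1 (AT1G76540) is a cyclin-dependent kinase made in late G2 and mitosis. It measured 48.2, 44.6, 52.3, 45.7 and 43.5 FPKM in gPLT2C212S at 0.3 nM, 39.5, 25.2, 29.4, 24.3 and 29.2 FPKM in gPLT2, and 23.3, 28.6, 24.0, 22.4 and 21.4 FPKM in plt2. The gPLT2C212S libraries did not overlap with the others, and gPLT2 replicate 1 was the highest outside that line. The log2 fold change was 0.97 ± 0.11 (SE) for gPLT2C212S over plt2 (edgeR adjusted p = 6.08e-07) and 0.67 ± 0.13 for gPLT2C212S over gPLT2 (adjusted p = 0.00179). Of the B-type cyclins, which activate such kinases, CYCB2;3 (AT1G20610), CYCB2;2 (AT4G35620) and CYC1BAT (AT5G06150) are members. CYCB2;3 measured 32.7, 27.4, 43.7, 30.8 and 43.2 FPKM in gPLT2C212S, 20.2, 23.2, 15.6, 16.3 and 15.4 FPKM in gPLT2, and 14.4, 15.7, 12.8, 16.2 and 14.4 FPKM in plt2. Its gPLT2C212S values were again all above the rest, and the edgeR log2 fold change over gPLT2 was 0.98 ± 0.15 (SE, adjusted p = 0.000172). For CYCB2;2 and CYC1BAT that fold change was 0.77 and 0.80 on the log2 scale.

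CSLD5 (AT1G02730), a cellulose synthase-like protein that makes wall polysaccharide at the cell plate, measured 18.9, 18.3, 26.6, 19.9 and 25.8 FPKM in gPLT2C212S, 11.1, 8.96, 8.08, 10.2 and 10.1 FPKM in gPLT2, and 10.9, 10.6, 8.19, 9.71 and 11.2 FPKM in plt2 at 0.3 nM. The gPLT2 and plt2 values were interleaved, and the edgeR log2 fold change between them was -0.05 ± 0.13 (SE, adjusted p = 0.808). For gPLT2C212S over gPLT2 it was 1.18 ± 0.13 (edgeR adjusted p = 6.54e-06). At 5 nM CSLD5 averaged 23.9 ± 3.17 FPKM in gPLT2C212S, 18.9 ± 0.774 FPKM in gPLT2 (SD, n = 6 each) and 11.8 ± 2.09 FPKM in plt2 (n = 5). The remaining genes of the group, the kinesin-related AT4G26660, AT5G55520 and AT5G23910 and the spindle gene PS1 (AT1G34355), known for its part in meiosis, had log2 fold changes of 1.28, 1.00, 0.88 and 0.84 for gPLT2C212S over gPLT2.

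**Figure D3:**
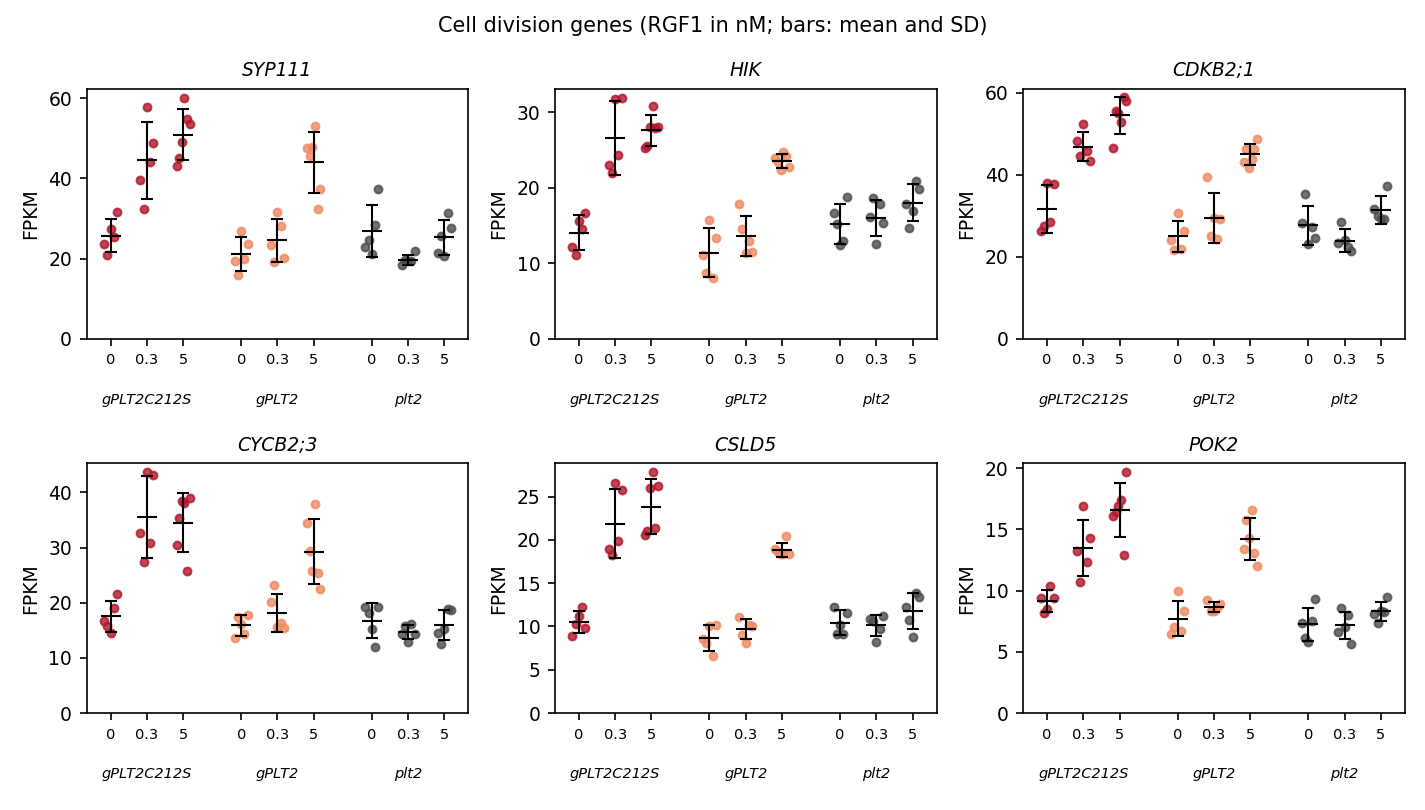
FPKM of 6 cell division genes in each library (points) with group mean and SD (bars), by line and RGF1 dose in nM, where 0 is mock. In each panel the gPLT2C212S libraries at 0.3 nM lie near their own 5 nM level, while the gPLT2 libraries at 0.3 nM overlap with plt2 and lie below gPLT2 at 5 nM, except for CYCB2;3, where the highest gPLT2 library at 0.3 nM (23.2 FPKM) passes the lowest at 5 nM (22.5 FPKM).

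The annotated cyclins, cyclin-dependent kinases and mitotic kinesins, a list drawn by product name, hold 9 of these members among 95 genes with a mean FPKM of at least 2. In gPLT2C212S against gPLT2 at 0.3 nM, 28 of the 96 listed genes tested were called higher and 3 lower. In gPLT2C212S against plt2 it was 43 higher and 13 lower of 96, and in gPLT2 against plt2 7 higher and 8 lower of 97. The median edgeR log2 fold changes of the list were 0.195, 0.233 and -0.042, beside 0.003, 0.021 and 0.009 over all genes tested. The histones, which are made in S phase, held no member, and 0 of 40 were called in either direction between the transgenic lines, against 30 of 42 called lower in gPLT2C212S than in plt2 and 28 of 42 lower in gPLT2 than in plt2. Of the DNA replication list, also without a member, 0 of 43 were called between the transgenic lines. Over all genes tested in that comparison 3.4% were called higher and 3.99% lower, so 0 calls in lists of this size is near that share.

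The promoters of the cell division members carry a common short motif. The window read was 250 bases before to 50 after the annotated gene start in RefSeq TAIR10.1, on the strand of the gene. AACGG, the core of the mitosis-specific activator (MSA) element known from B-type cyclin and KNOLLE promoters, was found on either strand in 11 of the 12 windows (91.7%). It was found in 34.9% of the 146 members with a window, in 27.4% of protein-coding genes with a mean FPKM of at least 2 and in 24.7% of 27437 nuclear protein-coding genes. CDKB2;1 was the member of the group without it. Both sequences shown belong to cytokinesis genes that separated the transgenic lines, and their capitals mark AACGG or its reverse complement CCGTT. SYP111 is read from the minus strand of chr1:2710951-2711250 and HIK from the minus strand of chr1:6324329-6324628.
SYP111: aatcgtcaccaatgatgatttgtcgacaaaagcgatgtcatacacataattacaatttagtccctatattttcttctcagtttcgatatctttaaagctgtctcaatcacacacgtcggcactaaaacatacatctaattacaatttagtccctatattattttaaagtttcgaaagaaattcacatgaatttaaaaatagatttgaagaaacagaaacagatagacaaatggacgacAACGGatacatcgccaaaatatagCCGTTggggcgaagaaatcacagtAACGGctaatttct
HIK: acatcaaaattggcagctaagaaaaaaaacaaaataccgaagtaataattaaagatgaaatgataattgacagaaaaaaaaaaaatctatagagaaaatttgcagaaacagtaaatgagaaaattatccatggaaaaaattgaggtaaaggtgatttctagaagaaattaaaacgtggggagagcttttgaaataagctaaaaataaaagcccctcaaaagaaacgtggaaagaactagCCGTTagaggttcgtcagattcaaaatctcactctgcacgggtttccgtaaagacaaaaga

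The SYP111 window holds 3 matches and the HIK window 1, clustered around the gene start. A match is a description of the sequence and does not show that a factor binds there.

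Of the 9 ribosome and nucleolus genes, all 9 were called higher in gPLT2C212S against plt2, 5 were in gPLT2 against plt2, and in gPLT2C212S against gPLT2 1 was. Their median differences in mean log2(FPKM + 1) at 0.3 nM were 0.83, 0.565 and 0.345. FIB1 (AT5G52470) is fibrillarin, which methylates ribosomal RNA in the nucleolus, and was among the most abundant members. It stood at 360, 343, 326, 321 and 318 FPKM in gPLT2C212S, 295, 298, 248, 263 and 287 FPKM in gPLT2, and 144, 181, 151, 144 and 164 FPKM in plt2 at 0.3 nM. The lines formed an order with no overlap at any step. The edgeR log2 fold change was 1.09 ± 0.10 (SE) for gPLT2C212S over plt2 (adjusted p = 3.59e-08) and 0.84 ± 0.11 for gPLT2 over plt2 (adjusted p = 3.33e-06). Between the transgenic lines FIB1 did not pass the threshold, at 0.27 ± 0.10 (edgeR adjusted p = 0.124).

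NUC-L1 (AT1G48920), the nucleolin that organises ribosomal DNA, was the ribosome gene called between the transgenic lines. Its levels at 0.3 nM were 442, 401, 560, 487 and 544 FPKM in gPLT2C212S, 334, 261, 299, 325 and 306 FPKM in gPLT2, and 244, 341, 225, 290 and 271 FPKM in plt2. Here gPLT2 and plt2 overlapped, as they did for the cell division genes, with a log2 fold change of 0.17 ± 0.12 (SE, edgeR adjusted p = 0.328). For gPLT2C212S over gPLT2 it was 0.68 ± 0.13 (edgeR adjusted p = 0.00127). AT3G22660, annotated as an rRNA processing protein, measured 133, 101, 134, 120 and 114 FPKM in gPLT2C212S, 123, 107, 100, 91.6 and 85.4 FPKM in gPLT2, and 50.9, 89.2, 61.0, 63.3 and 53.4 FPKM in plt2. It was called higher than plt2 in gPLT2C212S (log2 fold change 0.92, edgeR adjusted p = 1.51e-05) and in gPLT2 (0.68, adjusted p = 0.000752), although 1 plt2 library lay within the gPLT2 range. The others were NAF1, an assembly factor of small nucleolar particles, AT3G12860, a NOP56-like protein, AT5G08600, a UTP protein of the processome, the exoribonuclease-family gene AT3G07750, the GTPase gene AT1G08410 and the ribosomal S5 protein gene AT1G58983, which has near-identical copies in the genome, so its count is uncertain. Their log2 fold changes for gPLT2C212S over plt2 lay between 0.52 for AT3G12860 and 1.55 for AT5G08600.

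The wider list of ribosome biogenesis and nucleolar genes, which holds 8 members, had 61 of 114 genes called higher and 6 lower in gPLT2C212S against plt2. In gPLT2 against plt2 33 of 113 were called higher and 4 lower, and in gPLT2C212S against gPLT2 8 of 114 and 0. Of the cytosolic ribosomal proteins, 111 of 263 were called higher and 16 lower in gPLT2C212S against plt2, and 48 higher and 32 lower in gPLT2 against plt2, but AT1G58983 was the list's single member. Between the transgenic lines 14 of 263 ribosomal proteins were called higher and 0 lower. The ribosomal protein calls in gPLT2 against plt2 lay near the shares of all genes, 14.3% higher and 17.0% lower.

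The telo box, AAACCCTA, is a motif known from promoters of plant translation genes. It was found on either strand in the windows of 5 of the 9 ribosome members (55.6%) and 0 of the 12 cell division members, beside 8.9% of the 146 members and 6.22% of all nuclear protein-coding genes. AAACCCTA or its reverse complement TAGGGTTT is in capitals in the windows of the 2 most abundant ribosome genes, FIB1 from the plus strand of chr5:21293897-21294196 and NUC-L1 from the plus strand of chr1:18097831-18098130.
FIB1: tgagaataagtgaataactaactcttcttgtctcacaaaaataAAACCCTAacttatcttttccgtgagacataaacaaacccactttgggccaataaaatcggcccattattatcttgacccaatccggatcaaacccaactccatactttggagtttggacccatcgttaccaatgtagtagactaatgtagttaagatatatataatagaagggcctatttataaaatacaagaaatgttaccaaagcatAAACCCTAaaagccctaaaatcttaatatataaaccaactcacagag
NUC-L1: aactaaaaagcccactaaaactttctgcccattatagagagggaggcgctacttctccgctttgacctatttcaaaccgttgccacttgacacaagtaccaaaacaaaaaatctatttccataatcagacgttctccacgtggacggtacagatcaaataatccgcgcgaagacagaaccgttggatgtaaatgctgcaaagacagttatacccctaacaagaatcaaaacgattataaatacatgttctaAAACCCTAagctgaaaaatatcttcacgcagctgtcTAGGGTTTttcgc

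Each of these windows holds 2 matches. Other motifs were searched on both strands: TGGGCC (the site II element) was in 14.4% of members, 21.6% of protein-coding genes with a mean FPKM of at least 2 and 15.5% of all windows, CACGTG (the G-box) in 9.59% and 7.68%, and TTGACC (the W-box) in 14.4% and 14.2%. The consensus known for AINTEGUMENTA, a relative of PLT2, was in 0 member windows and 0.0729% of all windows, which says only that its letters are not in these windows. None of these motifs overlaps in its letters with AACGG or AAACCCTA.

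**Figure D4:**
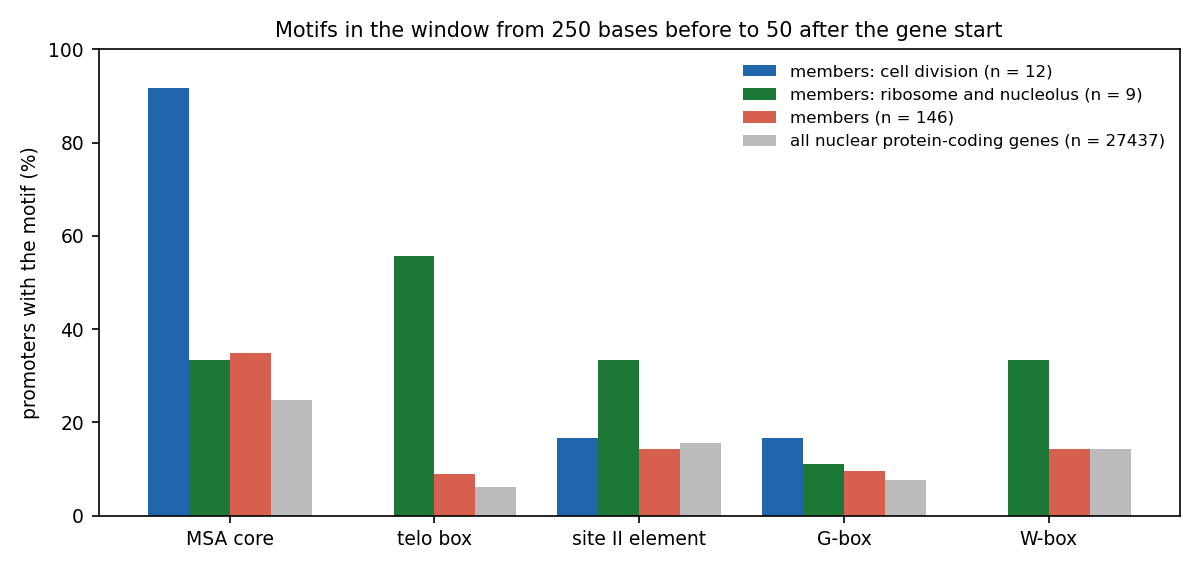
Share of promoter windows, in percent, that hold each of 5 motifs on either strand, for the 12 cell division members, the 9 ribosome and nucleolus members, all 146 members with a window and 27437 nuclear protein-coding genes. The MSA core reaches 91.7% in the cell division members and the telo box 55.6% in the ribosome members, against 24.7% and 6.22% of all genes.

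Hormone genes were led by AHP1 (AT3G21510), which relays the cytokinin signal from receptors to response regulators. It stood at 35.3, 39.9, 35.4, 46.9 and 28.8 FPKM in gPLT2C212S, 34.1, 39.5, 35.1, 25.3 and 28.5 FPKM in gPLT2, and 2.88, 3.63, 7.46, 5.46 and 5.38 FPKM in plt2 at 0.3 nM. The transgenic lines overlapped with each other, and both lay far above plt2. The log2 fold change was 2.92 ± 0.20 (SE) for gPLT2C212S over plt2 (edgeR adjusted p = 1.78e-10) and 2.74 ± 0.20 for gPLT2 over plt2 (adjusted p = 1.06e-09). Under mock treatment AHP1 already averaged 16.0 ± 2.38 FPKM in gPLT2C212S and 11 ± 3.61 FPKM in gPLT2, against 4.26 ± 1.24 FPKM in plt2 (SD, n = 5 each). CRF4 (AT4G27950), a cytokinin response factor of the AP2 family, measured 71.0, 63.3, 68.6, 63.5 and 68.5 FPKM in gPLT2C212S, 59.3, 41.0, 37.0, 58.5 and 55.2 FPKM in gPLT2, and 33.0, 34.4, 29.2, 37.3 and 36.4 FPKM in plt2. Its gPLT2C212S values were above all others, and the lowest gPLT2 value fell within the plt2 range. The edgeR log2 fold changes were 0.97 for gPLT2C212S over plt2 (adjusted p = 1.54e-07), 0.57 for gPLT2 over plt2 (adjusted p = 0.0025) and 0.42 for gPLT2C212S over gPLT2 (adjusted p = 0.0429), and 9 alternatives ended that last call. The cytokinin list as a whole went the other way. Of 33 genes, 6 were called higher and 16 lower in gPLT2C212S against plt2, beside 22.2% and 24.2% of all genes. In gPLT2 against plt2 it was 3 higher and 15 lower, beside 14.3% and 17.0%. The list's lower calls exceeded their share, and its higher calls did not.

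A further 3 hormone members are tied to gibberellin. KAO2 (AT2G32440) oxidises a gibberellin precursor and measured 14.2, 15.3, 11.8, 14.9 and 17.9 FPKM in gPLT2C212S, 8.87, 6.63, 7.54, 11.6 and 8.1 FPKM in gPLT2, and 4.37, 5.31, 3.92, 4.57 and 4.09 FPKM in plt2 at 0.3 nM. AT5G14920, a secreted protein of the gibberellin-regulated GASA family, measured 103, 108, 120, 97.2 and 75.8 FPKM in gPLT2C212S, 52.3, 55.2, 51.0, 27.2 and 32.3 FPKM in gPLT2, and 20.9, 14.2, 25.2, 16.5 and 16.2 FPKM in plt2. Both genes formed an order of lines without overlap. For gPLT2C212S over gPLT2 the edgeR log2 fold change was 0.80 ± 0.16 (SE) for KAO2 (adjusted p = 0.00229) and 1.22 ± 0.17 for AT5G14920 (adjusted p = 6.14e-05). AT5G14920 already differed under mock, at 51.4 ± 18.5 FPKM in gPLT2C212S, 25.6 ± 9.36 FPKM in gPLT2 and 23.0 ± 2.76 FPKM in plt2 (SD, n = 5 each). Its mock log2 fold change of gPLT2C212S over gPLT2 was 0.99 (edgeR adjusted p = 0.00584). SLY2 (AT5G48170), an F-box protein that targets the DELLA repressors, was low, with 7.46, 6.91, 5.16, 4.39 and 5.52 FPKM in gPLT2C212S, 2.95, 2.32, 2.16, 0.254 and 2.48 FPKM in gPLT2, and 0.567, 2.56, 6.57, 1.33 and 1.79 FPKM in plt2. Its plt2 replicate 3 reached into the gPLT2C212S range. The call of SLY2 between the transgenic lines (log2 fold change 1.49, edgeR adjusted p = 0.00856) compares values that do not overlap, and that between gPLT2 and plt2 was not made (-0.29, adjusted p = 0.707).

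The remaining hormone members were the ethylene receptor gene ETR2, the SAUR-family gene AT1G75590 and RTE1, which acts on an ethylene receptor. ETR2 was called higher in gPLT2C212S (log2 fold change 0.88) and in gPLT2 (1.03) than in plt2, as was AT1G75590 (1.28 and 1.22). For RTE1 the estimates of 0.68 and 0.80 did not pass the threshold. No gene of the RGF1 and PLT pathway list, which includes RGF1 receptors and the PLT family, was a member. The auxin list, with 43 genes tested in gPLT2C212S against plt2, held no member either.

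Among the transcription factors, WRKY45 (AT3G01970), known from phosphate starvation and senescence, had almost no transcript in plt2. It measured 5.38, 7.75, 5.49, 7.08 and 6.44 FPKM in gPLT2C212S, 6.81, 6.52, 5.33, 5.44 and 4.83 FPKM in gPLT2, and 0.234, 0, 0.246, 0 and 0 FPKM in plt2 at 0.3 nM. That is 186 counts over the 5 gPLT2C212S libraries and 152 over the 5 gPLT2 libraries, against 2 over the 5 plt2 libraries. Scaled to library size the ratio was 69.6 (95% counting interval 19 to 579) for gPLT2C212S over plt2 and 64.0 (17.4 to 533) for gPLT2 over plt2, where the interval covers counting error only. The edgeR test called both (adjusted p = 7.81e-09 and 2.97e-08), and gPLT2C212S over gPLT2 was 0.15 on the log2 scale (adjusted p = 0.736). bZIP1 (AT5G49450), which responds to low energy, measured 5.76, 6.15, 10.5, 7.15 and 10.3 FPKM in gPLT2C212S, 5.59, 5.17, 5.0, 6.27 and 5.57 FPKM in gPLT2, and 1.4, 1.72, 1.48, 0.824 and 0.947 FPKM in plt2. Both lines were clear of plt2 and overlapped with each other, with log2 fold changes of 2.61 (edgeR adjusted p = 2.58e-06) and 2.07 (adjusted p = 7.76e-05) over plt2.

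Of the 13 transcription factors, 11 were called higher and 1 lower in gPLT2C212S against plt2, and 7 higher and 0 lower in gPLT2 against plt2. Between the transgenic lines 3 were called, all higher in gPLT2C212S: CRF4, HSFC1, a heat shock factor (log2 fold change 0.68), and COL9, a CONSTANS-like regulator of flowering (1.27). COL9 was already higher in gPLT2C212S than in gPLT2 under mock (log2 fold change 1.06, edgeR adjusted p = 0.011). Among those called in both lines against plt2 were MYB70 (0.68 in gPLT2C212S and 1.17 in gPLT2 on the log2 scale), the bZIP factor VIP1 (0.78 and 0.75) and IDD7 (0.95 and 0.65). MYB30 (0.77), GATA19 (1.02), HSFC1 (0.99) and the PLATZ-family gene AT1G76590 (1.73) were called in gPLT2C212S against plt2. The homeodomain-like gene AT5G04760 was not called. RVE1, a clock-related factor, was the 1 called lower than plt2 in gPLT2C212S. It measured 0.907, 2.46, 2.4, 0.998 and 1.48 FPKM in gPLT2C212S, 2.84, 2.45, 1.8, 3.53 and 4.26 FPKM in gPLT2, and 2.84, 3.75, 2.66, 5.0 and 3.12 FPKM in plt2. All gPLT2C212S values lay below all plt2 values, with a log2 fold change of -1.06 ± 0.31 (SE, edgeR adjusted p = 0.00871). Its mock levels were also lower, at 0.722 ± 0.48 FPKM in gPLT2C212S and 1.64 ± 0.953 FPKM in gPLT2, against 2.5 ± 0.794 FPKM in plt2 (SD, n = 5 each).

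Of the 8 signalling members, 3 (RBK2, ROP9 and ROPGEF14) belong to the ROP pathway, small GTPases that steer polar growth. RBK2 (AT3G05140), a kinase that binds ROPs, measured 5.62, 6.27, 7.07, 5.78 and 5.7 FPKM in gPLT2C212S, 3.8, 6.06, 2.73, 2.2 and 3.7 FPKM in gPLT2, and 1.23, 0.785, 0.144, 0.805 and 0.617 FPKM in plt2 at 0.3 nM. Both transgenic lines were clear of plt2, with log2 fold changes of 3.06 ± 0.29 (SE, edgeR adjusted p = 3.35e-08) in gPLT2C212S and 2.36 ± 0.38 (adjusted p = 5.49e-05) in gPLT2. ROP9 (AT4G28950) itself measured 6.1, 10.1, 12, 6.27 and 8.13 FPKM in gPLT2C212S, 3.09, 3.85, 1.88, 1.33 and 2.16 FPKM in gPLT2, and 1.73, 4.46, 0.521, 4.07 and 2.67 FPKM in plt2. Like the cell division genes, ROP9 was raised in gPLT2C212S over gPLT2 (log2 fold change 1.78 ± 0.29, edgeR adjusted p = 0.000343) with no call in gPLT2 over plt2 (-0.11, adjusted p = 0.862). All 8 genes of the group were called higher in gPLT2C212S against plt2, 6 in gPLT2 against plt2 and 2, RBK2 and ROP9, between the transgenic lines. The RBK2 call between the transgenic lines (log2 fold change 0.72, edgeR adjusted p = 0.0456) was lost under 12 alternatives. The group also holds the exchange factor ROPGEF14, the receptor kinases AT2G25790 (SKM1) and SRF7, the lipid kinase gene AT1G10900 and the inositol phosphatase 5PTASE11. The receptor kinase list from which AT2G25790 and SRF7 come had 22 of 172 genes called higher and 56 lower in gPLT2C212S against plt2. Of all genes, 22.2% and 24.2% were so called.

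Genes of sugar and energy balance were 4 besides bZIP1. TPS11 (AT2G18700), a class II trehalose phosphate synthase, measured 11.1, 11.2, 9.94, 9.72 and 12.8 FPKM in gPLT2C212S, 6.36, 9.38, 9.13, 8.02 and 8.74 FPKM in gPLT2, and 2.7, 1.95, 3.64, 3.68 and 3.79 FPKM in plt2 at 0.3 nM. BT2 (AT3G48360), a BTB scaffold protein that responds to sugar and nitrogen, measured 8.36, 12, 6.61, 7.08 and 10.2 FPKM in gPLT2C212S, 5.46, 7.85, 3.92, 4.12 and 7.6 FPKM in gPLT2, and 1.45, 1.89, 3.45, 3.28 and 1.86 FPKM in plt2. No plt2 library of either gene reached a transgenic one. The log2 fold changes over plt2 were 1.81 in gPLT2C212S and 1.42 in gPLT2 for TPS11 (edgeR adjusted p = 3.81e-08 and 6.6e-06). For BT2 they were 1.91 and 1.32 (edgeR adjusted p = 1.27e-06 and 0.00059). The sugar carrier gene STP7 rose in both lines (1.23 and 1.05), while the polyol carrier gene PMT5 was called in gPLT2C212S over plt2 (0.67) and over gPLT2 (0.79) and had -0.10 in gPLT2 over plt2.

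A group of 7 chlorophyll and plastid genes was present in these roots at low levels. CAB1 (AT1G29930) and LHCB4.1 (AT5G01530) encode light-harvesting proteins of photosystem II. CAB1 measured 16.6, 15.4, 17.7, 14 and 9.54 FPKM in gPLT2C212S, 6.27, 4.87, 7.37, 4.39 and 4.52 FPKM in gPLT2, and 3.62, 0.847, 0, 1.52 and 2.33 FPKM in plt2 at 0.3 nM. The 3 lines did not overlap, with log2 fold changes of 3.12 ± 0.36 (SE) for gPLT2C212S over plt2 (edgeR adjusted p = 4.95e-07), 1.72 ± 0.43 for gPLT2 over plt2 (adjusted p = 0.00361) and 1.42 ± 0.21 for gPLT2C212S over gPLT2 (adjusted p = 0.000105). CAB1 belongs to a family of close copies whose reads may be shared. LHCB4.1 measured 7.11, 2.66, 6.28, 7.53 and 10.1 FPKM in gPLT2C212S, 3.47, 3.73, 5.84, 6.32 and 6.33 FPKM in gPLT2, and 1.59, 2.05, 0.959, 2.14 and 3.08 FPKM in plt2. It was called over plt2 in both lines (1.77, edgeR adjusted p = 0.000204, and 1.36, adjusted p = 0.00249), with gPLT2C212S replicate 2 inside the plt2 range. RBCS1A, the other green tissue marker listed, stayed at a median of at most 1.12 FPKM in every group.

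CP12-1 (AT2G47400), a regulator of the Calvin cycle, measured 25.7, 17.3, 26.8, 19.8 and 21.5 FPKM in gPLT2C212S, 10.9, 13.1, 12.2, 10.9 and 13.8 FPKM in gPLT2, and 6.62, 1.71, 0.367, 2.87 and 3.76 FPKM in plt2. It again formed an order of lines without overlap, and the log2 fold change between the transgenic lines was 0.88 ± 0.16 (SE, edgeR adjusted p = 0.00135). G-TMT (AT1G64970), the last enzyme of vitamin E synthesis, measured 9.78, 12.7, 15.2, 10.4 and 11.8 FPKM in gPLT2C212S, 9.66, 13.1, 9.82, 14.5 and 17.3 FPKM in gPLT2, and 4.27, 3.5, 1.89, 2.64 and 4.25 FPKM in plt2. Both transgenic lines were above plt2 (1.83 and 1.94 on the log2 scale, edgeR adjusted p = 1.12e-06 and 2.22e-06) and overlapped with each other. LHCB3, of the same antenna, and SCO1, a plastid translation elongation factor, were also called in both lines (for LHCB3 in gPLT2C212S the call was lost under 8 alternatives), and AT1G74470, a geranylgeranyl reductase of chlorophyll synthesis, was not called (0.34 and 0.25). Of 8 light-harvesting genes tested, 5 were called higher and 0 lower than plt2 in each transgenic line, and 3 of the 8 are members. Within the group of 7, CAB1, G-TMT, LHCB3, SCO1 and AT1G74470 each overlap another annotated gene on the opposite strand (NRPA2 for CAB1). Strand use in counting is not given, so their low counts could include reads of those genes.

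AT4G16563, annotated as an aspartyl protease, had the highest rank under the rule. It measured 29.1, 23.4, 20.9, 18.7 and 15.9 FPKM in gPLT2C212S, 11.3, 11.7, 15.9, 7.58 and 7.1 FPKM in gPLT2, and 0.157, 0.129, 0.991, 0.184 and 0 FPKM in plt2 at 0.3 nM. The transgenic lines met at 15.9 FPKM, and plt2 was near 0. The edgeR log2 fold change over plt2 was 6.20 ± 0.35 (SE) in gPLT2C212S (adjusted p = 1.29e-11) and 5.20 ± 0.43 in gPLT2 (adjusted p = 5.89e-09). Under mock AT4G16563 averaged 1.84 ± 0.687 FPKM in gPLT2C212S, 0.892 ± 0.363 FPKM in gPLT2 and 0.381 ± 0.494 FPKM in plt2 (SD, n = 5 each).

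UBC17 (AT4G36410) and UBC29 (AT2G16740) are ubiquitin-conjugating enzymes with the same kind of pattern at very low counts. UBC17 measured 7.87, 6.38, 6.21, 6.38 and 7.1 FPKM in gPLT2C212S, 9.43, 11.6, 11.5, 6.31 and 8.8 FPKM in gPLT2, and 1.51, 0, 0.531, 0 and 0.454 FPKM in plt2. UBC29 measured 4.81, 2.35, 3.43, 3.15 and 3.93 FPKM in gPLT2C212S, 3.34, 3.39, 1.96, 3.08 and 2.46 FPKM in gPLT2, and 0, 0.282, 0, 0 and 0 FPKM in plt2. In each case no plt2 library overlapped with a transgenic one. The count ratio of UBC17 was 13.8 (95% counting interval 5.69 to 43.4) for gPLT2C212S over plt2 and 19.4 (8.06 to 60.8) for gPLT2 over plt2. For UBC29 it was 53.1 (9.23 to 2130) and 42.9 (7.37 to 1730), against 1 count in all 5 plt2 libraries. Every mock group and every plt2 group of UBC29 averaged at most 0.217 FPKM. It therefore passed the filter on mean FPKM through RGF1-treated transgenic libraries, and its ratios are a description. UBC29 had too few counts to be tested against plt2.

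Several further members stood clear of plt2 in both lines. AT3G11930, annotated as an adenine nucleotide alpha hydrolase-like protein, measured 31.9, 44.9, 43.8, 41.8 and 38.3 FPKM in gPLT2C212S, 34.6, 30.8, 33.0, 29.0 and 26.4 FPKM in gPLT2, and 4.37, 4.43, 4.33, 3.33 and 3.24 FPKM in plt2. CP5 (AT1G64720), of the polyketide cyclase and lipid transport family, measured 49.2, 46.0, 44.4, 50.9 and 49 FPKM in gPLT2C212S, 42.7, 54.2, 55.1, 38.7 and 38.1 FPKM in gPLT2, and 18.4, 13.2, 16.6, 17.2 and 14 FPKM in plt2. Both genes had transgenic lines that overlapped with each other and not with plt2. Their log2 fold changes over plt2 were 3.33 and 2.96 for AT3G11930 (edgeR adjusted p = 2.43e-12 in gPLT2C212S and 4.17e-11 in gPLT2). For CP5 they were 1.60 and 1.54 (edgeR adjusted p = 5.09e-10 and 2.95e-08).

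MEE14 (AT2G15890), named for an embryo arrest phenotype, measured 24.5, 22.9, 26, 17.5 and 24.9 FPKM in gPLT2C212S, 14.9, 16.7, 19, 10 and 17.0 FPKM in gPLT2, and 4.31, 2.09, 5.16, 3.69 and 3.18 FPKM in plt2. AT4G20210, a terpene cyclase-like gene, measured 9.5, 6.7, 9.53, 10.7 and 9.64 FPKM in gPLT2C212S, 7.15, 7.81, 6.23, 6.57 and 7.44 FPKM in gPLT2, and 2.19, 1.02, 1.65, 2.2 and 1.55 FPKM in plt2. Again plt2 was apart from both lines. The log2 fold changes over plt2 were 2.671 and 2.104 for MEE14 (edgeR adjusted p = 5.47e-10 and 2.82e-07) and 2.44 and 2.06 for AT4G20210 (adjusted p = 2.33e-08 and 8.21e-07). AT5G02550, an uncharacterised protein gene among the most abundant members, measured 192, 187, 259, 216 and 178 FPKM in gPLT2C212S, 236, 220, 258, 142 and 172 FPKM in gPLT2, and 104, 118, 150, 87.1 and 99.5 FPKM in plt2. All gPLT2C212S libraries lay above plt2, while the lowest gPLT2 library fell just under the highest plt2 one. Its transgenic lines differed by a log2 fold change of 0.02 ± 0.14 (SE, edgeR adjusted p = 0.963), and both were called over plt2 (0.89 each).

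The 15 wall, defence and detoxification genes were the least uniform. At 0.3 nM 12 were called higher and 1 lower in gPLT2C212S against plt2, 9 higher and 2 lower in gPLT2 against plt2, and 3 higher between the transgenic lines. PGIP1 (AT5G06860), an inhibitor of microbial polygalacturonases and the most abundant member, measured 469, 661, 443, 509 and 472 FPKM in gPLT2C212S, 609, 613, 510, 445 and 434 FPKM in gPLT2, and 724, 620, 688, 592 and 687 FPKM in plt2. Most transgenic libraries lay below plt2, with some overlap. PGIP1 was called lower than plt2 in gPLT2C212S (log2 fold change -0.38 ± 0.12 SE, edgeR adjusted p = 0.0153) and in gPLT2 (-0.33 ± 0.12, adjusted p = 0.0451), where the call was lost under 9 alternatives, against 1 in gPLT2C212S. Its mock levels were also lower in the transgenic lines, at 163 ± 22.3 FPKM in gPLT2C212S and 312 ± 51.8 FPKM in gPLT2, against 447 ± 81.0 FPKM in plt2 (SD, n = 5 each). In plt2 PGIP1 averaged 662 ± 54.5 FPKM at 0.3 nM, with every library above every mock one, and 493 ± 51.6 FPKM at 5 nM. The plt2 log2 fold change of 0.3 nM over mock was 0.58 ± 0.13 (SE) and was not called (edgeR adjusted p = 0.229, unadjusted p = 0.000374).

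GSTU11 (AT1G69930), a glutathione transferase, was also lower in the transgenic lines than in plt2 under mock and at 0.3 nM. It measured 2.4, 2.0, 0.858, 1.85 and 1.57 FPKM in gPLT2C212S, 0.608, 0.719, 1.11, 1.57 and 2.32 FPKM in gPLT2, and 3.8, 3.36, 2.77, 4.47 and 6.85 FPKM in plt2 at 0.3 nM. All transgenic values lay below all plt2 values, and the log2 fold change of gPLT2 over plt2 was -1.73 ± 0.40 (SE, edgeR adjusted p = 0.00201). Under mock it averaged 0.052 ± 0.116 FPKM in gPLT2C212S and 1.42 ± 0.566 FPKM in gPLT2, against 6.17 ± 3.43 FPKM in plt2. TT5 (AT3G55120), the chalcone isomerase of flavonoid synthesis, measured 17.1, 24.2, 18.8, 34.4 and 20 FPKM in gPLT2C212S, 20, 8.43, 5.43, 18.7 and 15.7 FPKM in gPLT2, and 16.0, 26.2, 31.0, 16.5 and 23.4 FPKM in plt2. The ranges overlapped in all pairs of lines. TT5 was called lower in gPLT2 than in plt2 (-0.71 ± 0.26, edgeR adjusted p = 0.0379) and not called in gPLT2C212S (0.01, adjusted p = 0.974). Its lower call was lost under 7 alternatives. Under mock TT5 averaged 4.86 ± 3.55 FPKM in gPLT2C212S and 5.7 ± 2.48 FPKM in gPLT2, against 18.5 ± 7.76 FPKM in plt2 (SD, n = 5 each).

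**Figure D5:**
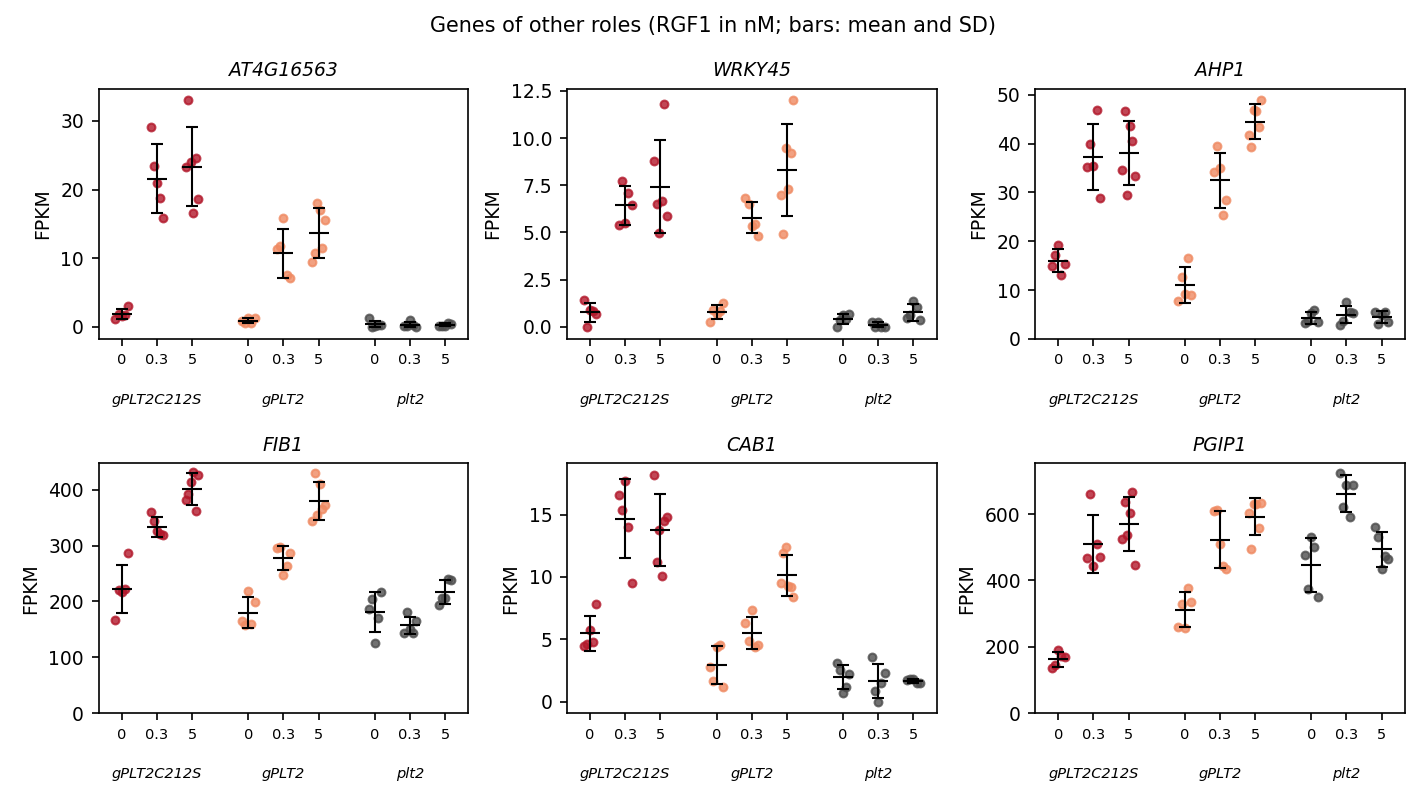
FPKM of 6 members of other roles in each library (points) with group mean and SD (bars), by line and RGF1 dose in nM, where 0 is mock. AT4G16563, WRKY45 and AHP1 lie far above plt2 in both transgenic lines at 0.3 nM, and FIB1 and CAB1 form an order of lines. PGIP1 rises from mock levels of 163 FPKM in gPLT2C212S and 312 FPKM in gPLT2 that lie below the 447 FPKM of plt2. In plt2 PGIP1 also stands higher at 0.3 nM, at 662 FPKM.

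Few counts lay behind the next 3 genes. HCHIB (AT3G12500), a basic chitinase, measured 2.28, 6.99, 2.99, 4.07 and 3.42 FPKM in gPLT2C212S, 0.963, 1.52, 1.32, 1.24 and 0.736 FPKM in gPLT2, and 0.232, 0, 0.488, 0 and 0.417 FPKM in plt2 at 0.3 nM. The lines did not overlap, and the log2 fold change between the transgenic lines was 1.75 ± 0.36 (SE, edgeR adjusted p = 0.00359). Every mock group and every plt2 group of HCHIB averaged at most 0.889 FPKM. RGF1-treated transgenic libraries thus carried it past the filter on mean FPKM, and these values are a description. The count ratio of HCHIB over plt2 was 16.8 (95% counting interval 6.97 to 52.6) in gPLT2C212S and 5.05 (1.94 to 16.7) in gPLT2. AT5G64120, a class III peroxidase with a close relative that may share reads, measured 4.48, 10.6, 0.278, 3.33 and 1.91 FPKM in gPLT2C212S, 0.493, 1.55, 0.45, 0.424 and 0.564 FPKM in gPLT2, and 0, 0, 0.249, 0.835 and 0 FPKM in plt2. Its gPLT2C212S replicates spread widely, 1 of them as low as plt2, and it had too few counts to be tested at this dose, with ratios over plt2 of 19.3 (7.3 to 72.0) in gPLT2C212S and 3.79 (1.25 to 15.4) in gPLT2. AT1G77530, an O-methyltransferase-like gene, measured 4.76, 4.09, 3.75, 2.53 and 3.89 FPKM in gPLT2C212S, 0.693, 0.328, 1.14, 1.61 and 0.794 FPKM in gPLT2, and 2.0, 1.47, 2.95, 3.29 and 2.52 FPKM in plt2. Here gPLT2 was the lowest line, overlapping a little with plt2, and the fold change of gPLT2C212S over gPLT2, 2.07 ± 0.35 (SE) on the log2 scale, was the largest among the called members (edgeR adjusted p = 0.000537). The smallest called ones were 0.42 for CRF4, 0.46 for AT4G33400 and 0.47 for PRMT10.

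In both transgenic lines against plt2, edgeR called the metacaspase MC3 (log2 fold change 2.43 in gPLT2C212S and 2.44 in gPLT2), the catalase CAT3 (0.97 and 1.00), EXO (1.43 and 0.94), the lectin gene AT3G15356 (1.36 and 1.24) and the cytochrome P450 gene CYP81D8 (1.59 and 1.46). The xyloglucan-modifying enzyme gene TCH4 was called in gPLT2C212S (0.74) and not in gPLT2 (0.28). Of the 4 transport genes, the zinc pump HMA4 (1.00 and 1.30) and the copper pump HMA5 (1.17 and 0.93) were called over plt2 in both lines, the ABC transporter ABCC3 (0.62) in gPLT2C212S, and the aquaporin RD28 in neither. The remorin-family gene AT4G00670 had too few counts to be tested, and its count ratio over plt2 was 6.43 (95% counting interval 2.55 to 20.8) in gPLT2C212S and 5.39 (2.08 to 17.7) in gPLT2. The cupredoxin-family gene AT4G39830 was called higher in gPLT2C212S than in plt2 (log2 fold change 2.21). The helicase gene AT3G06980 was called in both lines (1.07 and 0.95), and the elongation factor-like gene AT3G22980 in neither. Of the 71 members in no group, 56 were called higher and 0 lower in gPLT2C212S against plt2, 34 higher and 1 lower (TT5) in gPLT2 against plt2, and 21 higher and 0 lower between the transgenic lines.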

How the data were processed

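RNA-seq of 47 libraries was deposited as a table of raw counts per locus and a table of FPKM. Per the submitters' processing notes, reads were handled with HISAT2 2.1.0, featureCounts of Subread 2.0.3 and DESeq 1.34.0 on build TAIR10; strand use is not given in the sources used here. The deposited FPKM values equal the deposited counts divided by DESeq2 size factors and length, to within a relative deviation of 1e-14 over 10307 loci.

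The members, lists and role groups were chosen with earlier results of these data known. FPKM served for the rule, levels and differences (pseudocount 1), and counts for the tests. Per comparison, the libraries of the groups compared were filtered (filterByExpr, minimum count 10), scaled by TMM and fitted with edgeR 4.0.16 in R 4.3.3, without a replicate block. DESeq2 1.42.0 was an alternative. On simulated data 184 of 200 changed genes (log2 fold 1, gPLT2 against plt2 at 0.3 nM, 15633 genes) were recovered with 8 false calls. The changed genes were drawn from those with a mean count of at least 20. Recovery at lower counts or for smaller changes was not measured. Named genes follow a rule: the 10 top ranks, the 8 smallest adjusted p over plt2, up to 4 called lower, the 3 highest and 3 lowest called changes between transgenic lines, the 5 highest mean FPKM, transcription factors, receptors, list members and threshold neighbours; other members of role groups were named after their values were seen. Replicates differed beyond sampling noise (chi-square per degree of freedom at least 3.04).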

Additional observations from a re-analysis of the deposited data

Results flagged for a closer look

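Of 126 groups tested over 39 genes, 3 held a library far from the other 4, where chance gives about 1 in 20. AT4G16563 stood at 0.991 FPKM in plt2 replicate 3 at 0.3 nM, and the next library had 0.184 FPKM. UBC29 stood at 0.282 FPKM, or 1 count, in plt2 replicate 2 at 0.3 nM. The others were at 0, so any count in that library would be flagged. AT5G64120 stood at 1.55 FPKM in gPLT2 replicate 2 at 0.3 nM, and the next had 0.564 FPKM.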

How the results depend on the processing

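Over the alternatives that kept all libraries, members called higher numbered 121 to 132 for gPLT2C212S over plt2, 74 to 88 for gPLT2 over plt2 and 41 to 56 for gPLT2C212S over gPLT2. Leaving out 1 library in turn gave 120 to 129, 67 to 77 and 42 to 51. All 12 cell division genes were called over plt2 and over gPLT2 in gPLT2C212S under every alternative run. In gPLT2 over plt2, 0 to 1 were called with a library left out, and 4 with scaling to total nuclear counts. That scaling moved the median log2 fold change of all genes to 0.11, 0.119 and -0.038, and the share of higher among calls to 58.0%, 62.0% and 33.9%, beside 47.8%, 45.7% and 46.0%. With a replicate block, 121, 77 and 50 members were called higher. Same-numbered libraries correlated between -0.326 and 0.25, and differently numbered ones between -0.254 and 0.27. These ranges do not settle whether the numbers pair the libraries. The rule kept 95 of the 150 with a plt2 limit of 0.2, and 117 to 145 with a library left out, the fewest without plt2 mock replicate 5. Calls lost most often were those of AT4G39830, RBK2 and CRF4 between the transgenic lines, PGIP1 and TT5 in gPLT2, and LHCB3 in gPLT2C212S; the cause was not tested.

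No estimate that changed sign was called in the reported fits, where the farthest from 0 was -0.286 for SLY2 in gPLT2 over plt2. For gPLT2 over plt2 the ranges with a library left out were -0.357 to 0.171 for ROP9, -0.089 to 0.329 for GATA19, -0.533 to 0.376 for SLY2, -0.107 to 0.017 for CSLD5, -0.25 to 0.068 for AT4G26660, -0.124 to 0.136 for AT5G55520, -0.22 to 0.023 for CYC1BAT and -0.122 to 0.045 for AT5G23910. Scaling to total nuclear counts gave 0.063 for CSLD5, 0.099 for AT5G55520, 0.009 for PMT5, 0.016 for CYC1BAT and 0.082 for AT5G23910. AT5G55520 had 0.001 with DESeq2 size factors, 0.002 with DESeq2, 0.011 with no filter and 0.003 with the mitochondrial covariate. For gPLT2C212S over plt2 TT5 ranged from -0.187 to 0.141, with -0.004 in a fit of all groups and -0.003 with the block. For gPLT2C212S over gPLT2 the ranges were -0.201 to 0.041 for G-TMT, -0.134 to 0.038 for PGIP1, -0.091 to 0.108 for AT5G02550, -0.031 to 0.121 for VIP1, -0.179 to 0.203 for MC3, -0.081 to 0.377 for AT1G75590, -0.034 to 0.176 for AT3G43270, -0.149 to 0.27 for RD28, -0.295 to 0.081 for AT4G01895, -0.137 to 0.083 for CAT3, -0.235 to 0.153 for RTE1, -0.071 to 0.118 for AT2G39110 and -0.132 to 0.038 for SCO1. In that comparison the fit of all groups gave -0.004 for AT5G02550, -0.008 for MC3 and -0.011 for AT2G39110, and the block -0.029 for MC3. The mitochondrial covariate gave -0.057 for AT5G02550, -0.093 for AT2G39110, 0.086 for AT4G01895 and 0.005 for CAT3. Scaling to total nuclear counts gave -0.022 for AT5G02550, -0.027 for MC3 and -0.031 for AT2G39110.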

Other observations

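Other gene lists hold few members or none, and their calls at 0.3 nM are given by edgeR. Beside them stand 22.2% higher and 24.2% lower of all genes in gPLT2C212S against plt2, and 14.3% and 17.0% in gPLT2 against plt2. Between the transgenic lines the shares were 3.4% and 3.99%. Heat shock protein genes were called higher 22 times and lower 14 times of 62 in gPLT2C212S against plt2, and 7 and 14 times of 59 in gPLT2 against plt2. Between the transgenic lines 7 of 61 were higher and 0 lower in gPLT2C212S. Expansin, xyloglucan and cellulose synthase genes, which loosen or build walls, were called higher 9 times and lower 30 times of 49 in gPLT2C212S against plt2, and 3 and 29 times of 48 in gPLT2 against plt2. Signalling peptide genes, of which none is a member, were higher 6 times and lower 11 times of 26 in gPLT2 against plt2.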
